A study of Oryctolagus cuniculus with 4 samples.

Results

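DNA replication and repair genes were followed in rabbit ear hypertrophic scar (HS) with and without drug-loaded microneedles (MNs). They were picked by name alone, from gene families that copy DNA at the fork or mend it: MCM, ORC, GINS, POLA, POLD, POLE, RFC, RPA, PCNA, FANC, XRCC, RAD1, RAD5, MSH, MLH, BRCA, ERCC, PARP, LIG, UNG, TDG and SMUG1. This gave 69 of the 13913 genes in the table. The scars were made on the ventral side of the ears of rabbits labelled WT, and the tissue was taken 1 week after the last dose. The HS group had no treatment. In the drug-loaded MNs group, needles whose tips stay in the tissue and release a 5-fluorouracil derivative from a prodrug were put on the scar weekly for 3 weeks. Each group had 2 libraries of droplet single-cell RNA sequencing (10x Genomics), each from dissociated ventral epidermis and dermis of 1 scar tissue. The study calls the tissues of a group biologically independent and does not say whether they came from separate rabbits, so p-values may measure only the spread between these libraries. The 4 libraries hold no scar with drug-free MNs, so the patch and its drug cannot be told apart.

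Before a cell divides, the origin recognition complex (ORC) marks the places where copying starts, and the MCM helicase is loaded there. GINS and MCM10 help to start the helicase, and the polymerases alpha, delta and epsilon copy the strands. PCNA, the ring loaded by RFC, holds delta and epsilon on the template. These genes are mostly switched on in proliferating cells, as are several genes of homologous recombination, while most excision, mismatch and end joining genes are also used in resting cells. 5-Fluorouracil blocks the making of thymidylate, and uracil that then enters DNA is cut out by glycosylases such as UNG, SMUG1 and TDG. The patch released a derivative of it, and whether that derivative acts in this way was not tested here. In scar tissue, the dividing cells include basal keratinocytes, fibroblasts, endothelial and immune cells.

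The table held 1 value per gene and library. Values were rescaled so that each library summed to 1000000, and levels are given in these units. No values per cell were given, so more cells of a type and more RNA per cell cannot be told apart, and the depth was unknown. Of the 69 genes, 67 had a mean of at least 1 unit and were tested. MSH4 and RAD51D were below it. Summed over the 69 genes, the level was 1348 and 1309 units in HS replicates 1 and 2, and 1788 and 1238 units in drug-loaded MNs replicates 1 and 2. Cycling markers outside these families (13 of 18 listed, among them TOP2A, CDK1 and CCNB1; MKI67 was not analysed here) summed to 259 and 108 units in HS and to 561 and 155 units in drug-loaded MNs. All 13 were highest in drug-loaded MNs replicate 1 and lowest in HS replicate 2, and none was at 0. Basal keratinocyte markers summed to 8734 and 6282 units in HS and to 8431 and 4525 units in drug-loaded MNs, sums that rest mostly on KRT5 and KRT14. All 6 basal markers were higher in replicate 1 of drug-loaded MNs, but only 3 of 6 in replicate 1 of HS, where COL17A1 (176 and 392 units), TP63 (153 and 274 units) and DST (469 and 564 units) were lower. Suprabasal keratinocyte markers, mostly KRT10, summed to 36826 and 52321 units in HS and to 31373 and 41242 units in drug-loaded MNs. In both groups KRT10, DSC1 and DSG1 were lower in replicate 1, while KRT1 and CDSN were higher in replicate 1. Endothelial markers, mostly VWF, summed to 188 and 186 units against 142 and 189 units. This sum hides a split. VWF and TIE1 were lower in both drug-loaded MNs libraries than in HS, CDH5 and PECAM1 were higher in both, and KDR overlapped. Fibroblast markers, mostly COL1A2 and COL3A1, summed to 22996 and 22526 units against 44682 and 48616 units. Macrophage markers summed to 77.7 and 95.3 units against 194 and 195 units. The part of these markers in the results was not tested.

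To ask whether drug-loaded MNs changed replication and repair genes, log2(units + 1) was compared between the groups with limma over all 9348 genes that reached 1 unit. No replication or repair gene passed an adjusted p of 0.05 (0 of 67, where 0.0428% of all tested genes did). The smallest adjusted p among the 67 was 0.548. At an unadjusted p under 0.05 there was 1 gene higher in drug-loaded MNs, XRCC4, where 7.26% of all tested genes were called higher, and 0 genes lower, where 1.39% were. The standard error of a log2 fold change was 0.30 in the median gene and ranged from 0.23 to 0.57. With 2 libraries a group, small changes could not be seen, and larger ones could be missed too. The 6 fibroblast markers, looked at after their values were seen, had a median log2 fold change of 1.12. Of them, 0 passed an adjusted p of 0.05 in limma.

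By direction, 53 of the 67 genes had a log2 fold change above 0 (79.1%, where 64.6% of all tested genes did). Their median log2 fold change was 0.21, beside 0.12 over all tested genes. Without drug-loaded MNs replicate 1, 30 of 67 were above 0 (beside 58.2% of all tested genes), and the median was -0.075. Without drug-loaded MNs replicate 2 there were 62 (beside 68.8%), and without HS replicate 1 or 2 there were 47 each (beside 55.6% and 66%). With median ratio scaling 42 of 67 were above 0 (beside 48.7% of all tested genes), and with quantile normalization 40 of 67 (beside 47.4%). The groups did not overlap in 12 genes higher in drug-loaded MNs, which is 17.9% of 67 beside 26.6% of all tested genes, and in 1 gene lower, which is 1.49% beside 11.2%.

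**Figure D1:**
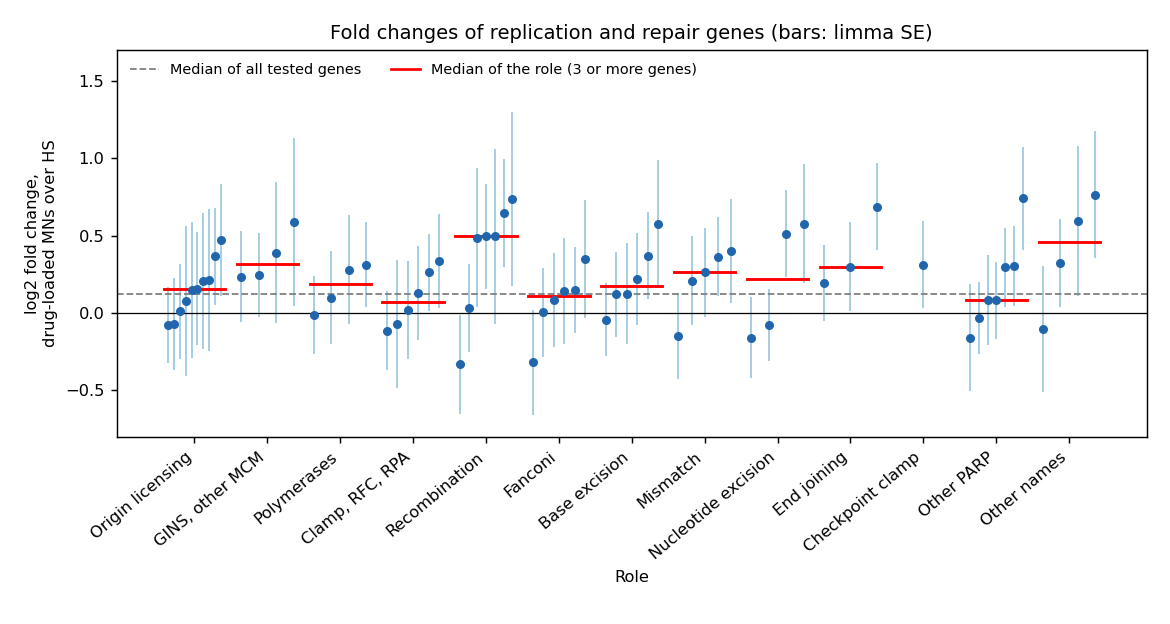
Log2 fold change of drug-loaded MNs over HS for each of the 67 tested genes (points, with limma standard errors as bars), grouped by role. Red lines are role medians and the dashed line is the median of all tested genes, 0.12. Points lie on both sides of that line in every role with 4 or more genes except the GINS and other MCM group, and recombination genes have the highest role median, 0.50.

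The subunits of the MCM helicase differed more between the drug-loaded MNs libraries than between the groups. MCM2 (ENSOCUG00000015924) stood at 26.1 and 14.2 units in HS and at 33.5 and 12.2 units in drug-loaded MNs. MCM5 stood at 32.5 and 20.4 units in HS and at 45.3 and 18.01 units in drug-loaded MNs. In both genes the drug-loaded MNs libraries lay on either side of the HS libraries. The other subunits in the table, looked at after the values of MCM2 and MCM5 were seen, had the same shape. MCM3 stood at 22.6 and 23.8 units in HS and at 46.5 and 15.5 units in drug-loaded MNs. MCM4 stood at 29.2 and 26.3 units against 45.6 and 21.1 units, and MCM6 at 23.7 and 17.7 units against 38.9 and 14.4 units. In all 5 subunits, drug-loaded MNs replicate 1 was the highest library and replicate 2 the lowest. Summed over MCM2 to MCM6, the level was 134 and 102 units in HS and 210 and 81.2 units in drug-loaded MNs. The log2 fold changes between groups were 0.08 for MCM2 (SE 0.48) and 0.15 for MCM5 (SE 0.44), with adjusted p of 0.978 and 0.956 in limma. Under median ratio scaling and quantile normalization MCM2 was slightly below 0. MCM7, a further subunit of the ring, was not analysed here.

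The ORC subunits that mark origins were flatter. ORC1, the subunit whose level follows the cell cycle, stood at 2.70 and 2.38 units in HS and at 5.62 and 2.65 units in drug-loaded MNs, so it was high in 1 of 4 libraries. ORC4 lay between 22.7 and 28.0 units and ORC5 between 4.82 and 6.59 units, with the groups overlapping in both. ORC2 and ORC3 also overlapped, with log2 fold changes of 0.01 and 0.37. ORC1, ORC3 and ORC4 overlap other protein-coding genes in the rabbit assembly mOryCun1.1, and how shared reads were counted was not stated. ORC6 was not analysed here. Over the 10 licensing genes the median log2 fold change was 0.15, and it moved to -0.36 when drug-loaded MNs replicate 1 was left out and to 0.73 when replicate 2 was.

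**Figure D2:**
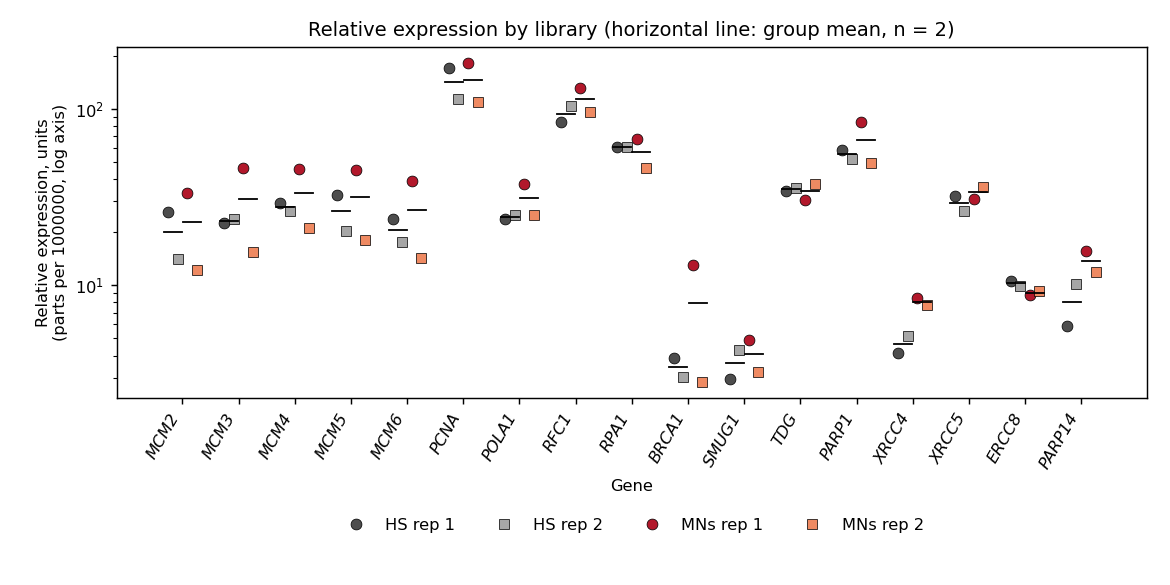
Relative expression in units (parts per 1000000, log axis) of 17 genes in each library, with HS in grey and drug-loaded MNs in red and orange, replicate 1 as circles and replicate 2 as squares, and group means (n = 2) as lines. MCM2 to MCM6 and BRCA1 are highest in drug-loaded MNs replicate 1 and lowest in drug-loaded MNs replicate 2, while XRCC4 is higher in both drug-loaded MNs libraries than in HS.

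Among factors that start the helicase, MCM10 stood at 5.27 and 3.35 units in HS and at 13.3 and 3.31 units in drug-loaded MNs. GINS3, a GINS subunit, stood at 1.96 and 0.629 units in HS and at 3.11 and 1.01 units in drug-loaded MNs. Replicate 1 was above replicate 2 in both groups for both genes. MCM9, a helicase tied to recombination, and MCM3AP, which is best known for mRNA export, did not share this order and were lowest in HS replicate 1. GINS2 was not analysed here.

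Of the polymerases, POLA1, the catalytic subunit of the polymerase that lays down primers, stood at 23.9 and 25.0 units in HS and at 37.3 and 25.0 units in drug-loaded MNs. The fold change was 0.31 on the log2 scale (SE 0.27, adjusted p 0.836 in limma), and the groups touched without overlapping, since drug-loaded MNs replicate 2 was almost level with HS replicate 2. POLD2 and POLD3, subunits of polymerase delta, had log2 fold changes of 0.10 and -0.01. POLE2, a subunit of polymerase epsilon, was low, at 1.69 to 3.74 units. All 4 were highest in drug-loaded MNs replicate 1.

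PCNA (ENSOCUG00000004059) stood at 172 and 114 units in HS and at 183 and 110 units in drug-loaded MNs. The 2 replicates of a group differed more than the groups did, and in each group replicate 1 was higher. The group means were 143 ± 40.6 units in HS and 147 ± 51.5 units in drug-loaded MNs (SD, n = 2 each). They differed by a fold change of 0.02 on the log2 scale (SE 0.32, adjusted p 0.992 in limma) that was below 0 under median ratio scaling and quantile normalization. RPA3, the small subunit of the complex that coats single-strand DNA, had the same order, at 62.1 and 33.3 units in HS and at 61.9 and 30.2 units in drug-loaded MNs. It overlaps the gene UMAD1 in the assembly. RPA1, the large subunit, was level in HS, at 61.0 and 60.7 units, and stood at 67.6 and 46.6 units in drug-loaded MNs. RFC1, the large subunit of the clamp loader, stood at 84.8 and 104 units in HS and at 132 and 96.1 units in drug-loaded MNs, with a fold change of 0.26 on the log2 scale (SE 0.25, adjusted p 0.848 in limma). RFC4 and RFC5, smaller loader subunits, had log2 fold changes of 0.13 and 0.34, and the groups overlapped in all 6 genes of the clamp, loader and RPA.

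Homologous recombination, which copies a sister strand to mend a break, had the highest median among these roles. The median fold change of its 7 tested genes was 0.50 on the log2 scale, and 6 of 7 were above 0. BRCA1 (ENSOCUG00000003883), which steers breaks into this pathway, stood at 3.86 and 3.00 units in HS and at 13.1 and 2.84 units in drug-loaded MNs. Drug-loaded MNs replicate 1 was 4.61 times replicate 2, and replicate 2 was below both HS libraries. The log2 fold change of BRCA1 was 0.74 (SE 0.56, adjusted p 0.801 in limma). It moved to -0.20 when drug-loaded MNs replicate 1 was left out and to 1.67 when replicate 2 was, where the adjusted p was 0.0649, the smallest of any of these genes in any alternative (adjusted p from 0.0649 to 0.99996 over the 12 alternatives).

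RAD51AP1 and RAD54L, which assist strand exchange, were looked at after their values were seen. RAD51AP1 stood at 6.55 and 2.82 units in HS and at 12.3 and 3.30 units in drug-loaded MNs, and RAD54L at 2.73 and 1.54 units against 5.61 and 1.82 units. Both had replicate 1 above replicate 2 in each group. RAD51B, of the same pathway, stood at 1.45 and 2.66 units in HS and at 4.60 and 2.93 units in drug-loaded MNs, without overlap, with a fold change of 0.65 on the log2 scale (SE 0.35, adjusted p 0.709 in limma). XRCC2, which works in the same step, was the only tested recombination gene below 0, at -0.33. RAD50, which tethers broken ends, had a log2 fold change of 0.03. Without drug-loaded MNs replicate 1 the recombination median was -0.20.

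The Fanconi anaemia genes, whose core complex acts on crosslinked DNA, overlapped between groups throughout. Their 6 tested members had log2 fold changes from -0.32 in FANCG to 0.35 in FANCM, with a median of 0.11. All 6 were highest in drug-loaded MNs replicate 1. FANCD2 was not analysed here.

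**Figure D3:**
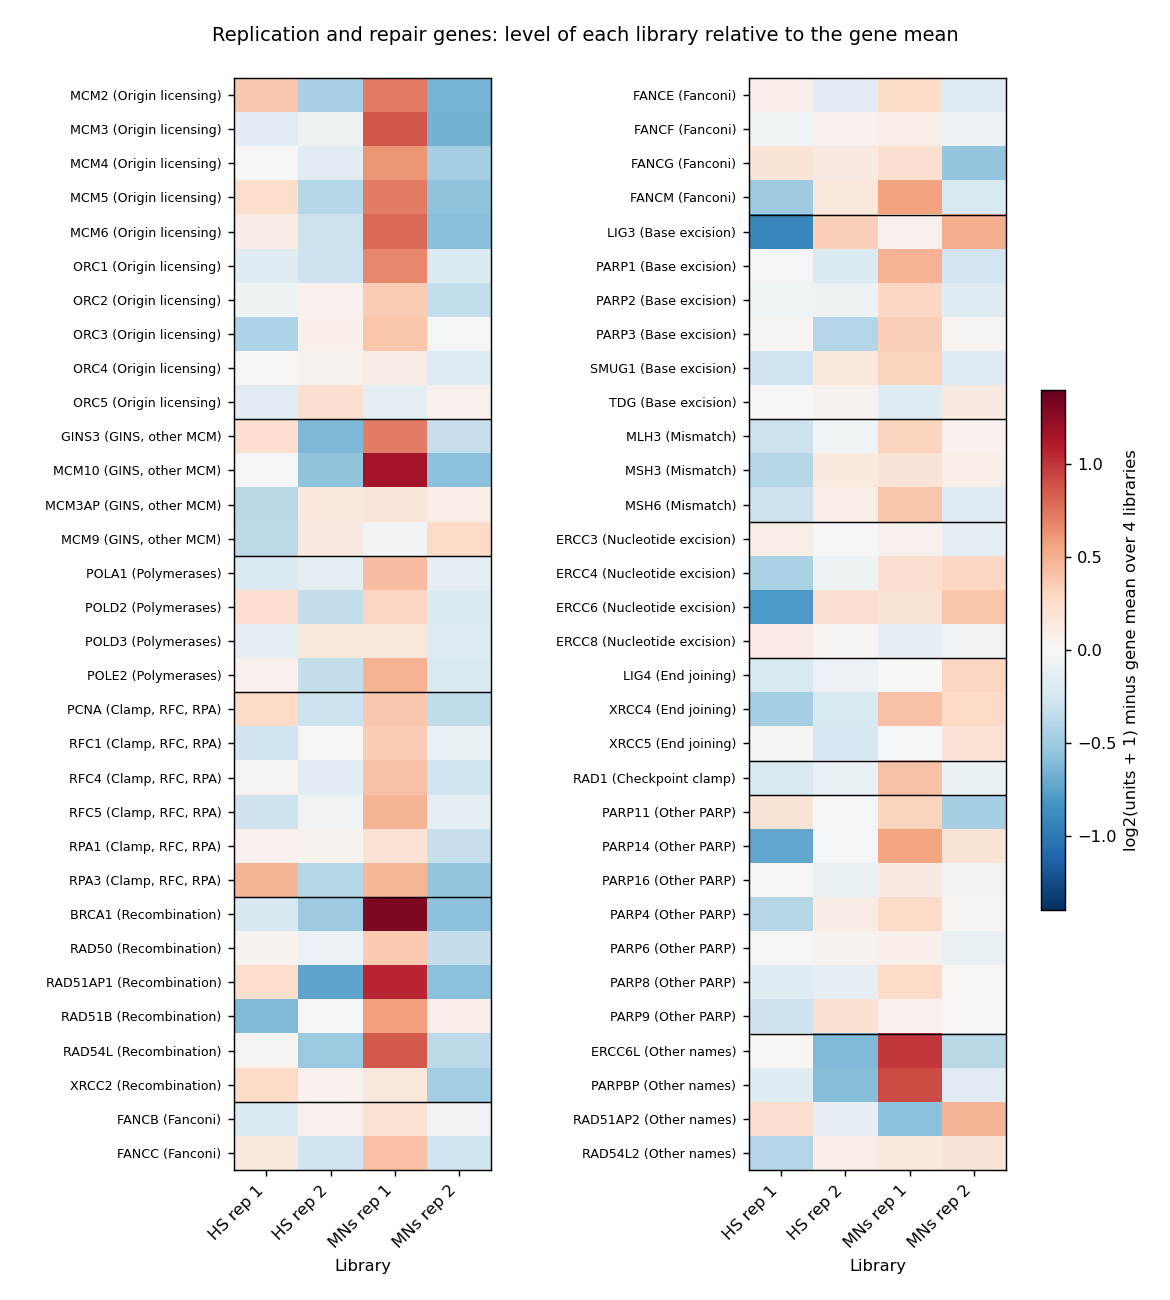
Heat map of log2(units + 1) minus the mean over the 4 libraries for 64 of the 67 tested genes (rows, with the role in parentheses) in the 4 libraries (columns). Drug-loaded MNs replicate 1 is red for most replication and recombination genes, whereas nucleotide excision and end joining genes lack that column pattern.

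The glycosylases that act on uracil in DNA overlapped between groups. TDG, which removes uracil and thymine from mispairs with guanine, stood at 34.3 and 35.7 units in HS and at 30.7 and 37.6 units in drug-loaded MNs. The fold change was -0.04 on the log2 scale (SE 0.24, adjusted p 0.977 in limma), and the HS libraries lay inside the range of the drug-loaded MNs libraries. TDG overlaps the gene GLT8D2 in the assembly. SMUG1, which takes uracil from both single-strand and paired DNA, was low, at 2.95 and 4.31 units in HS and at 4.93 and 3.21 units in drug-loaded MNs. Its fold change was 0.12 on the log2 scale (SE 0.33, adjusted p 0.950 in limma) and was -0.16 under quantile normalization. UNG was not analysed here.

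Downstream of the glycosylases, PARP1, the main sensor of strand breaks, stood at 58.8 and 52.2 units in HS and at 84.5 and 49.5 units in drug-loaded MNs, with a fold change of 0.22 on the log2 scale (SE 0.29, adjusted p 0.895 in limma). PARP2, its close relative, stood at 14.7 and 14.6 units in HS and at 19.0 and 13.5 units in drug-loaded MNs. Both were high in drug-loaded MNs replicate 1 only. PARP3 was without overlap, at 17.7 and 12.7 units against 21.9 and 17.7 units, although the nearest libraries of the 2 groups were almost equal. LIG3, a ligase of this pathway that overlaps RFFL and CCT6B in the assembly, was set apart by HS replicate 1, at 14.0 units beside 34.5, 28.4 and 38.9 units in the other libraries.

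Mismatch repair genes leaned the same way as most genes. MSH6 and MSH3, which recognise mispairs, had log2 fold changes of 0.21 and 0.26. MLH3, which acts after recognition, was at 0.36 without overlap between groups. HS replicate 1 was the lowest library in 4 of the 5 tested genes, and it was the lowest in 44.5% of all tested genes. MSH4, a meiotic family member, was between 0.028 and 0.17 units.

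Nucleotide excision genes did not follow the replication genes. ERCC8, which acts where RNA polymerase stalls, stood at 10.6 and 9.94 units in HS and at 8.84 and 9.32 units in drug-loaded MNs. Among the 67 genes picked by name, it was the only one with both drug-loaded MNs libraries below both HS libraries. Its fold change was -0.16 on the log2 scale (SE 0.26, adjusted p 0.913 in limma), and it overlaps NDUFAF2 in the assembly. ERCC6, its partner at stalled polymerases, stood at 2.72 and 6.56 units in HS and at 6.38 and 7.47 units in drug-loaded MNs, so the low value was that of HS replicate 1. ERCC4, a nuclease subunit, stood at 6.39 and 8.55 units against 10.7 and 11.3 units, without overlap, with a fold change of 0.51 on the log2 scale (SE 0.28, adjusted p 0.709 in limma). ERCC3, a helicase of the transcription factor TFIIH, was level at 32.2 to 37.6 units.

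End joining, which seals breaks without a template, held the gene with the smallest p. XRCC4 (ENSOCUG00000015052), the scaffold that binds the ligase LIG4, stood at 4.16 and 5.17 units in HS and at 8.48 and 7.71 units in drug-loaded MNs. Both drug-loaded MNs libraries were above both HS libraries, and the replicates of each group lay close together, with means of 4.66 ± 0.717 and 8.09 ± 0.546 units (SD, n = 2 each). On the log2 scale XRCC4 differed by 0.69 (SE 0.28), and its unadjusted p in the limma fit was 0.0427. It did not pass after adjustment (adjusted p 0.548 in limma). Its direction was kept in all 12 alternatives, with log2 fold changes from 0.44 to 0.82. As its groups do not overlap, only a change of scaling could have reversed it. LIG4 stood at 4.13 and 4.63 units in HS and at 4.96 and 6.33 units in drug-loaded MNs, also without overlap, with a fold change of 0.30 on the log2 scale (SE 0.29, adjusted p 0.851 in limma). XRCC5, a subunit of the Ku ring that grips broken ends, overlapped between groups, at 32.3 and 26.5 units against 31.1 and 36.4 units, with a fold change of 0.19 on the log2 scale (SE 0.25, adjusted p 0.889 in limma). RAD1, of the checkpoint clamp, stood at 12.5 and 13.5 units in HS and at 19.7 and 13.5 units in drug-loaded MNs.

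The remaining PARP genes modify proteins in many settings, and several are not repair enzymes. PARP14, which is known from interferon and cytokine responses, stood at 5.88 and 10.2 units in HS and at 15.7 and 11.9 units in drug-loaded MNs, without overlap, with a fold change of 0.74 on the log2 scale (SE 0.33, adjusted p 0.604 in limma). PARP9, which is known from the same responses, had a log2 fold change of 0.08 and overlapped. PARP6 and PARP16 differed little over the libraries, at 28.7 to 32.4 and 17.3 to 20.4 units. PARP4, PARP8 and PARP11 had log2 fold changes of 0.30, 0.30 and -0.16.

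Of the 4 genes that fit the name rule but none of the roles, PARPBP and ERCC6L are known from proliferating cells. PARPBP, which restrains recombination, stood at 3.60 and 2.42 units in HS and at 8.76 and 3.66 units in drug-loaded MNs. The groups were apart by a narrow margin, and the fold change was 0.77 on the log2 scale (SE 0.41, adjusted p 0.702 in limma). PARPBP overlaps NUP37 in the assembly, as do RAD51AP1 with DYRK4, RAD54L with LRRC41, RFC4 with EIF4A2, FANCC with AOPEP and MSH6 with FBXO11. ERCC6L, a translocase of mitotic chromosomes, stood at 3.89 and 2.14 units in HS and at 8.53 and 2.67 units in drug-loaded MNs. RAD54L2 and RAD51AP2 had log2 fold changes of 0.32 and -0.10.

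The libraries of 1 group were then set against each other, as a description with 1 library on each side. Differences are in log2(units + 1). Drug-loaded MNs replicate 1 was the highest library in 51 of the 67 genes (76.1%, where it was the highest in 40.1% of all tested genes). It was more than 1 log2 unit above drug-loaded MNs replicate 2 in 13 of 67 genes (19.4%, beside 2.93% of all tested genes): MCM2 to MCM6, MCM10, GINS3, RPA3, BRCA1, RAD51AP1, RAD54L, ERCC6L and PARPBP. No gene of the 67 had HS replicate 1 more than 1 log2 unit above HS replicate 2, where 2.37% of all tested genes did. The added 1 unit shrinks the differences of low genes. In units, HS replicate 1 was 3.11 times HS replicate 2 in GINS3 and 2.33 times in RAD51AP1. Likewise, drug-loaded MNs replicate 1 was 2.13 times replicate 2 in ORC1. In the other direction, HS replicate 2 was more than 1 log2 unit above replicate 1 in 2 genes, LIG3 and ERCC6 (beside 3.61% of all tested genes), and drug-loaded MNs replicate 2 above replicate 1 in 1 gene, RAD51AP2 (beside 1.69%). The median difference between the drug-loaded MNs libraries was 0.97 log2 units in licensing genes, where it was 1.38 in MCM2 to MCM6 and 0.41 in the ORC subunits. It was 0.75 in recombination genes, 0.65 in the clamp, loader and RPA, 0.57 in Fanconi genes, 0.56 in GINS and other MCM genes and 0.53 in polymerases. It was 0.38 in base excision, 0.32 in mismatch repair, -0.07 in nucleotide excision and -0.22 in end joining genes, beside 0.11 over all tested genes. The cycling markers, which the name rule did not use, had a median difference of 1.71 between the drug-loaded MNs libraries and of 0.92 between the HS libraries.

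**Figure D4:**
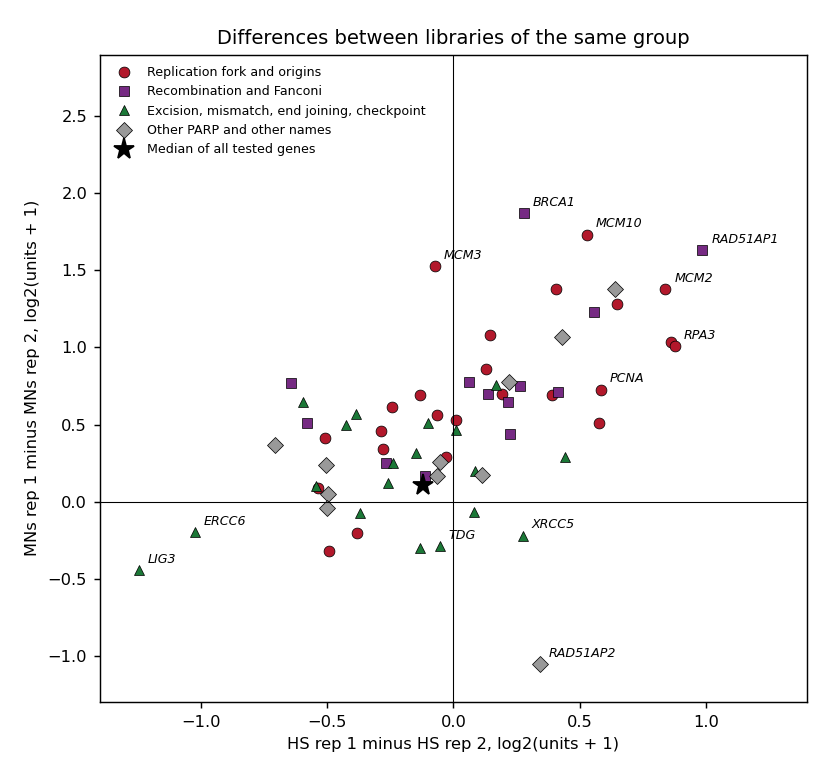
Difference between replicate 1 and replicate 2 in log2(units + 1), for HS (horizontal) and drug-loaded MNs (vertical), in each of the 67 tested genes, coloured by kind of role, with a star at the median of all 9348 tested genes. BRCA1, MCM10 and RAD51AP1 lie at the top, and LIG3 and ERCC6 at the lower left.

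Across the 67 genes, the difference between the HS replicates and that between the drug-loaded MNs replicates had a Pearson correlation of 0.58, beside 0.22 over all 9348 tested genes. This is a correlation across genes, which are not independent replicates, and each point shares its 4 libraries with all others. Replicate numbers are only labels, so the sign of the correlation depends on how they were given. With 2 libraries a group it cannot show a shared replicate effect. PCNA, RPA3, MCM2, GINS3 and RAD51AP1 were higher in replicate 1 of both groups, and LIG3, ERCC6 and MCM9 were lower in replicate 1 of both. FANCM and RAD51B were lower in replicate 1 of HS and higher in replicate 1 of drug-loaded MNs. The spread within groups, as a pooled standard deviation on the log2 scale, was 0.34 in the median replication or repair gene and 0.25 in the median tested gene.

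Genes of the same pathways outside the name rule were taken from lists. Of 26 further replication genes, 13 were in the table, and 0 passed an adjusted p of 0.05 in limma (beside 0.0428% of all tested genes). At an unadjusted p under 0.05 there were 0, where 7.26% of all tested genes were called higher and 1.39% lower. Their median log2 fold change was 0.25, and it was -0.14 without drug-loaded MNs replicate 1. RRM1, the large subunit of ribonucleotide reductase, stood at 43.5 and 38.4 units in HS and at 74.6 and 34.3 units in drug-loaded MNs. The groups did not overlap in 1 gene in each direction, where 26.6% of all tested genes were higher and 11.2% lower without overlap. TIMELESS, which protects the fork, was higher, at 10.8 and 9.10 units in HS and at 17.1 and 13.9 units in drug-loaded MNs, with a difference of 0.59 on the log2 scale (adjusted p 0.622 in limma). GMNN, which blocks a repeat of licensing, was lower, at 28.5 and 31.7 units against 22.7 and 19.6 units, with a difference of -0.49 on the log2 scale (adjusted p 0.674 in limma). DUT, which clears dUTP before it can enter DNA, stood at 79.3 and 55.3 units in HS and at 98.1 and 55.3 units in drug-loaded MNs.

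Of 46 further repair genes, 25 were in the table, with a median log2 fold change of 0.26. None passed an adjusted p of 0.05 in limma (beside 0.0428% of all tested genes). At an unadjusted p under 0.05 there were 0 higher genes, beside 7.26% of all tested genes, and 1 lower gene, beside 1.39%. This was APEX1, the nuclease that cuts at the site left by a glycosylase, at 107 and 79.1 units in HS and at 68.6 and 50.7 units in drug-loaded MNs. Its fold change was -0.63 on the log2 scale (SE 0.26, adjusted p 0.561 in limma). Most genes of the list went the other way, with 20 of 25 above 0, where 64.6% of all tested genes were. RRM1, TIMELESS, GMNN, DUT and APEX1 were named after their values were seen.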

How the data were processed

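The authors ran Cell Ranger 2.1.1 (unique molecular identifier counting) and Seurat, and a correction for technical differences between samples is mentioned. Some cells were removed and the mitochondrial share was limited, with thresholds not given in the sources used here. How doublets were treated, how cells were combined and whether the correction applies to the deposited values were not given there either. The submitters' processing notes name the mouse build mm10, whereas gene identifiers are those of rabbit. The deposited signal, named FPKM, summed to 10000 in each library, so it is a relative expression value. Of the lowest values, 18.6% to 21.7% lay within 0.1 of a whole multiple of the smallest, so whole reads were not recovered and no count test was run.

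Values were rescaled to 1000000 per library, only genes whose mean reached 1 unit stayed in, and log2(value + 1) was fitted in limma 3.58.1 (R 4.3.3; lmFit, eBayes with trend, no covariate), with two-sided p-values adjusted by Benjamini-Hochberg over 9348 genes. Fold changes on this scale understate the change of low genes. The fit was tested on simulated data. Named genes were 18 chosen by role, of which 13 could be analysed (ORC6, GINS2, UNG, ERCC1 and FANCD2 were not analysed here), plus up to 4 higher and 4 lower genes without overlap and with the smallest p. Others were named after their values were seen. Some genes of these families were counted but are not reported singly here. All 67 tested genes matched 1 gene of RefSeq assembly mOryCun1.1, and 17 overlapped another protein-coding gene there. The members and lists were chosen with earlier results of these data known. Alternatives were scaling, pseudocount, filter, variance trend, replicate block and leaving out each library.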

Additional observations from a re-analysis of the deposited data

How the results depend on the processing

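No replication or repair gene passed the threshold in the reported fit or in any of 12 alternatives (0 of the tested genes in each). The number over all genes (4) was 0 with quantile normalization, with median ratio scaling, without a filter and with a pseudocount of 5, 1 with eBayes without trend, and 0 to 75 with 1 library left out, where a lone library takes its spread from the other group. The cause was not tested. A block for the replicate number gave 241, of which 0 were replication or repair genes. Same-numbered libraries share only a number: the correlation of their deviations from the mean of the group was 0.22 over all tested genes, and 2 pairs cannot show a pairing.

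The median log2 fold change of replication and repair genes (0.21) ranged from -0.075 to 0.43 with 1 library left out, and was 0.072 with median ratio scaling and 0.056 with quantile normalization. The count above 0 under alternatives was added after the data were seen, and it changed by over 1.5 times only without drug-loaded MNs replicate 1 (30 beside 53). Of the 18 named genes, 10 kept their direction in every alternative. This count was partly fixed in advance. The groups do not overlap in XRCC4, PARP14, PARPBP, RAD51B, ERCC8 and POLA1, so leaving out 1 library could not reverse these genes. The filter, variance trend and replicate block alternatives left the fold change of each tested gene as it was. With 1 library left out, log2 fold changes ranged from -0.61 to 0.77 for MCM2, -0.49 to 0.79 for MCM5, -0.34 to 0.38 for PCNA, -0.38 to 0.15 for RPA1, -0.12 to 0.37 for SMUG1, -0.19 to 0.10 for TDG, -0.16 to 0.60 for PARP1 and -0.20 to 1.67 for BRCA1. MCM2 was -0.063 with median ratio scaling and -0.069 with quantile normalization, PCNA -0.12 and -0.013, and SMUG1 -0.16 with quantile normalization. PARPBP, RAD51B and SMUG1 lay below a minimum mean of 5 and were not tested there. What depth limits was not measured, as the values carry no depth.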
